A study of Mus musculus with 70 samples.

Results

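The 40 genes followed across the 8 mouse cancer lines drive DNA replication and cell division, and they were taken by symbol from the 35197 genes of the deposited table. 20 of them act at the G1/S boundary or in DNA synthesis: 13 replication genes (Mcm2 to Mcm7, Pcna, Rrm1, Rrm2, Tyms, Cdc6, Cdt1 and Gins2), the 4 genes Ccne1, Ccne2, E2f1 and E2f8, and the 3 D cyclins Ccnd1, Ccnd2 and Ccnd3. The other 20 act in G2 and mitosis: Mki67, Top2a, Plk1, Aurka, Aurkb, Bub1, Bub1b, Ccna2, Ccnb1, Ccnb2, Cdk1, Cdc20, Cenpa, Cenpe, Cenpf, Kif11, Kif20a, Tpx2, Birc5 and Foxm1. All 40 were present and all 40 passed the filter on low counts, which left 16147 genes for testing. 6 lines come from C57BL/6 mice: the melanoma lines B16.1 and YUMMER1.7, the pancreatic lines KPC.2 and Panc02.3, the colorectal line MC38.7 and the lung line LLC. Another 2, CT26.2 (colorectal) and Renca (renal), come from BALB/c mice. Each was cultured without stimulation (NS), with interferon beta (IFNb, 1000 activity units/mL) or with interferon gamma (IFNg, 100 ng/mL) for 48 h, and bulk RNA was sequenced from 70 libraries. The 2 doses are in different units and cannot be matched, so a difference between the cytokines may be one of dose. 22 of the 24 groups had 3 libraries, and IFNg-treated LLC and unstimulated Renca had 2. The labels do not say whether libraries of a group came from separate cultures, so each p-value reflects library-to-library spread alone, and that spread may be technical.

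A dividing cell enters the cycle when D cyclins with CDK4 or CDK6, and then E cyclins with CDK2, phosphorylate the retinoblastoma protein and free E2F transcription factors. E2F turns on the genes that load the MCM helicase onto replication origins (Cdc6, Cdt1, Mcm2 to Mcm7) and supply nucleotides (Rrm1, Rrm2, Tyms), whereas the mitotic genes are switched on later by the MuvB complex with B-Myb and FoxM1. In resting cells, the DREAM complex of E2F4, a pocket protein and MuvB holds both classes down. Interferons are known to slow the growth of many cell types, type I interferon (IFNb) through the IFNAR receptor and type II interferon (IFNg) through IFNGR.

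The 2 classes differed in how often some short words occurred in their promoters, and 10 promoters are printed as examples from genes whose values by library are given below: 5 of mitotic genes, then 3 of replication genes, that of the cyclin gene Ccne1 and that of E2f8, an E2F target which encodes a repressor of E2F targets. They were chosen after values and sequences had been seen. Each is the 250 bases before the annotated start (RefSeq, GRCm38.p6), read 5′ to 3′ on the gene's own strand, with 3 kinds of short word in capitals. These are the cell cycle genes homology region, CHR, which MuvB binds (TTTGAA or TTCGAA), the CCAAT box of the NF-Y factor (CCAAT), and an E2F word (TTCCCGC or TTGGCGC), all searched on both strands. In E2f8 a CCAAT box and an E2F word overlap. The promoter of Ccne1 holds none of the words. The GENCODE annotation starts Cdc6 earlier, at chr11:98907801, so by it the printed stretch of Cdc6 lies inside the gene. The bases before that earlier start were not searched. After the start, outside the printed bases, lie the CHR word of Plk1, 1 of the 2 CHR words of Ccnb2 and 1 of the 3 CCAAT boxes of Mcm5.
Cdk1, chr10:69352913-69353162, minus strand: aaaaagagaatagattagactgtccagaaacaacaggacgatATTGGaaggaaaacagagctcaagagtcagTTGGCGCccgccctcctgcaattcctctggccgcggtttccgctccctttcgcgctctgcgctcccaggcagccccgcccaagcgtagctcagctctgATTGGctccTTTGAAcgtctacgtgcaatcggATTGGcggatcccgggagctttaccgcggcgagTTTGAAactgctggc
Ccnb2, chr9:70421555-70421804, minus strand: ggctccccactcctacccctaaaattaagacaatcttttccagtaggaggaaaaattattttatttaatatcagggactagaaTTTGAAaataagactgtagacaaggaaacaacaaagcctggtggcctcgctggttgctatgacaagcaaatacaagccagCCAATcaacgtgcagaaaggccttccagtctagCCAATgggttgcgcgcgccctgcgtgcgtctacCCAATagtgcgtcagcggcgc
Cdc20, chr4:118437344-118437593, minus strand: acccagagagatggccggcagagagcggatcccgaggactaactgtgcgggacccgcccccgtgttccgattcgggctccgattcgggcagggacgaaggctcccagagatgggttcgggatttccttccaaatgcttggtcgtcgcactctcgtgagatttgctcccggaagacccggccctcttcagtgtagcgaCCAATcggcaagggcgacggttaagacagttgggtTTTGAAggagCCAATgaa
Mki67, chr7:135716380-135716629, minus strand: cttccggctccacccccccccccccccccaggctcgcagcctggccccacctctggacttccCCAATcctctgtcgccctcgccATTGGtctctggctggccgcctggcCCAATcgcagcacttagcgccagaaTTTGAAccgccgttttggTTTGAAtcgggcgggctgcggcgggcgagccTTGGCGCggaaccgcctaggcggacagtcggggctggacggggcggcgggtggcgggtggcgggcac
Plk1, chr7:122159185-122159434, plus strand: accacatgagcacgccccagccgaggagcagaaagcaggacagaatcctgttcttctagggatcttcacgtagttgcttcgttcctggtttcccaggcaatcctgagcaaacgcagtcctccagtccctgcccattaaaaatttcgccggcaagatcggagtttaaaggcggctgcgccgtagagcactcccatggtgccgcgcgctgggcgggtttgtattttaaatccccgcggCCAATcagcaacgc
Mcm5, chr8:75109259-75109508, plus strand: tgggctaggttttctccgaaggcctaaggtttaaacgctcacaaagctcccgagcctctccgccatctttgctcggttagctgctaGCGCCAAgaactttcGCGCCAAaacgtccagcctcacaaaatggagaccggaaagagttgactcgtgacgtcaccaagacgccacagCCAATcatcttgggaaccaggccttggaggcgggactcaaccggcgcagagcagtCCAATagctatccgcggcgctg
Mcm2, chr6:88898781-88899030, minus strand: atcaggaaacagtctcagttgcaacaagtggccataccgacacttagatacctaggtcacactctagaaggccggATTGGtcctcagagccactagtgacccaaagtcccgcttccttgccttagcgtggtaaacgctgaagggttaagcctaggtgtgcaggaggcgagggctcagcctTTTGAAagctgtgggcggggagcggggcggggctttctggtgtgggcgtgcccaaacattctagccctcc
Cdc6, chr11:98907901-98908150, plus strand: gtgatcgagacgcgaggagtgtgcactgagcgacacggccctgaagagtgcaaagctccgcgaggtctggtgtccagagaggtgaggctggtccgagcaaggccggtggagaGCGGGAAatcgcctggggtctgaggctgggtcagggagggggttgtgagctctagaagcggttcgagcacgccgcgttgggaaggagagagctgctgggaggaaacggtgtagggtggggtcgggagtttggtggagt
Ccne1, chr7:38107491-38107740, minus strand: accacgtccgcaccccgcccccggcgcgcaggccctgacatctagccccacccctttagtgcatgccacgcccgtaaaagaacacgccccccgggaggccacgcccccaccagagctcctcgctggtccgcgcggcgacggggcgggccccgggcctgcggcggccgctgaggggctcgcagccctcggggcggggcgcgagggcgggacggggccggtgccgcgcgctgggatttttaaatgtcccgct
E2f8, chr7:48881597-48881846, minus strand: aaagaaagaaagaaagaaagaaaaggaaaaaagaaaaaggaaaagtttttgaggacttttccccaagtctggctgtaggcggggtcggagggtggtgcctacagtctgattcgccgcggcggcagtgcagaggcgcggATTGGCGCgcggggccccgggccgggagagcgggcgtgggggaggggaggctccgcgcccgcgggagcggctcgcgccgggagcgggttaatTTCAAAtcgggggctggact
RefSeq promoters, extended to the first 50 bases of the transcript, were matched for 30 of the 40 genes, 15 of each class. A CHR word and a CCAAT box occurred together in 12 of 15 mitotic promoters and 3 of 15 G1/S promoters, against 8.61% of the 27025 genes with a promoter of this length and 7.29% of the 11558 of them that passed the filter on low counts. The E2F word occurred in 8 of 15 G1/S promoters, among them 7 of 11 replication genes, and in 3 of 15 mitotic ones, against 7.79% of all promoters and 1507 of the 11558 of genes that passed the filter. A CHR word, with or without other words, was in 21.7% of all promoters and 17.0% of those that passed, and a CCAAT box in 41.1% and 43.2%. A match is a word in a window, not a measured binding site.

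The libraries held between 668355 and 28550816 counts, with a median of 8644887, and the shallowest was the third IFNb library of KPC.2. Levels are given as CPM, a gene's count brought to a common library total with TMM scaling factors. Of 6 interferon-induced check genes, the summed level rose above every unstimulated library in each line and with each cytokine, least in YUMMER1.7 with IFNb (3943 to 4027 CPM against 3381 to 3915 CPM unstimulated). In B16.1 the sum was 2310 to 2380 CPM with IFNb and 11492 to 11795 CPM with IFNg. In LLC the 2 ranges overlapped, at 3352 to 3495 CPM and 3332 to 3427 CPM. Lineage markers fitted some labels and not others: 7 melanocyte genes summed to 19998 to 20390 CPM in unstimulated B16.1 but to 18.7 to 25.5 CPM in YUMMER1.7. In unstimulated libraries the 4 colon markers summed to at most 2.10 CPM in CT26.2 and 0.0864 CPM in MC38.7, and the 4 lung epithelial markers to at most 0.163 CPM in LLC. The 9 leukocyte markers summed to at most 10.9 CPM in every unstimulated line. The 7 endothelial and fibroblast markers summed to 308 to 311 CPM in unstimulated MC38.7 and 467 to 531 CPM in YUMMER1.7. In each other unstimulated line they summed to at most 18.5 CPM.

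In unstimulated cells the 40 genes ran at different levels in the 8 lines. KPC.2 had the lowest mean of 18 of the 20 mitotic genes and of 12 of the 19 G1/S genes other than Ccnd2, and its mitotic genes summed to 956 to 1405 CPM. The highest sums of the mitotic genes were in LLC (4301 to 4386 CPM) and B16.1 (4235 to 4472 CPM). Every one of the 40 genes differed between lines (edgeR quasi-likelihood F test, adjusted p at most 3.6e-15), and so did 96.5% of all genes tested, so a difference in level between lines is the rule here. Mki67, which encodes the proliferation antigen Ki-67, was at 79.5, 143 and 83.8 CPM in unstimulated KPC.2 and at 509.7, 602 and 604 CPM in Panc02.3. Among the widest ranges was that of Ccne1, cyclin E1, from a mean of 4.23 CPM in KPC.2 to 82.6 CPM in B16.1. Ccnd2, cyclin D2, was nearly absent from Renca, with 3 counts in all 8 libraries together, and no fold is given for it there. Per kilobase of exon, Pcna, the sliding clamp of DNA polymerase, was the most abundant member in unstimulated B16.1 (189 CPM per kb), followed by Rrm2 (132 CPM per kb), a subunit of ribonucleotide reductase.

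**Figure D1:**
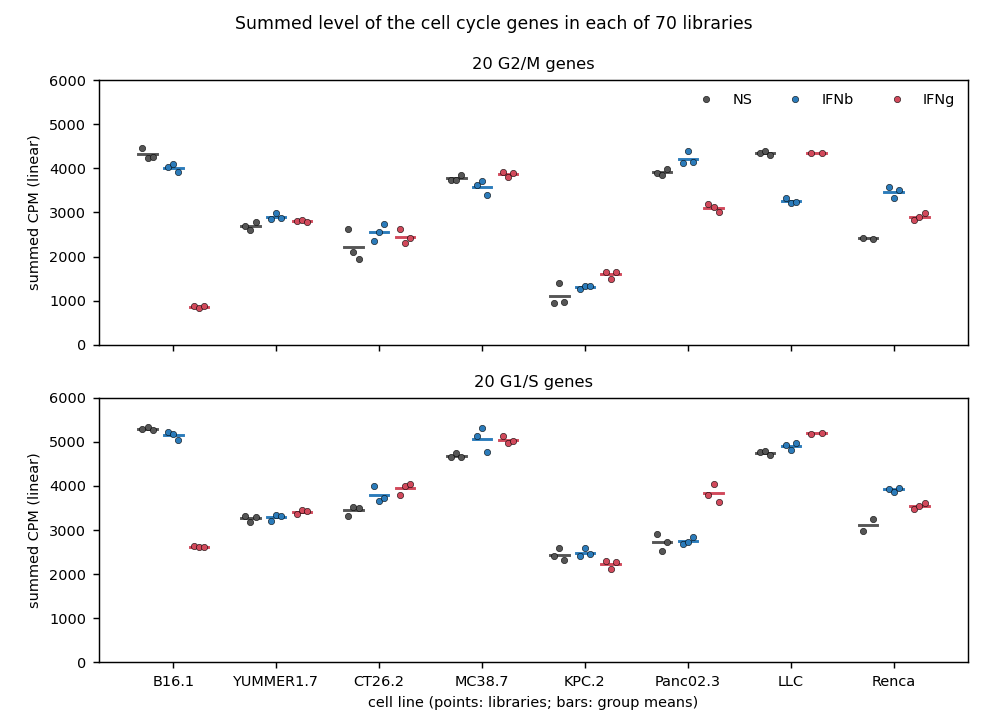
Summed level of the 20 G2/M genes (top) and of the 20 G1/S genes (bottom), in CPM on a linear axis, for each of 70 libraries (points; bars are group means; grey NS, blue IFNb, red IFNg). The IFNg libraries of B16.1 lie between 826 and 888 CPM for the mitotic genes, below every other library in the top panel.

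In B16.1, IFNg lowered all 20 mitotic genes and 17 of the 20 G1/S genes, and the 3 genes that rose were the 3 D cyclins. Across all genes tested, 26.5% fell and 27.6% rose. The mitotic genes had a median log2 fold change of -2.28 and the G1/S genes one of -1.78, against 0.00 over all genes. Mki67 fell furthest, from 573, 569.5 and 529 CPM unstimulated to 52.6, 50.4 and 55.5 CPM (log2 fold change -3.40 ± 0.13, SE, adjusted p = 3.2e-30). Next came E2f8, from 74.8, 68.9 and 69.2 CPM to 8.49, 7.51 and 6.40 CPM (-3.25 ± 0.09, adjusted p = 1.8e-37). In both genes each treated library lay far below each unstimulated one. The mitotic kinase Cdk1 stood at 232, 229 and 241 CPM and then 62.2, 57.7 and 62.0 CPM, and its partner cyclin B1 (Ccnb1) at 209, 192 and 197 CPM and then 31.2, 28.9 and 30.7 CPM. The other mitotic genes fell within the same band, from Tpx2, a spindle assembly factor (-1.54 ± 0.08), to Bub1, a spindle checkpoint kinase (-3.06 ± 0.10). In bulk RNA, fewer cells in a cycle phase and less RNA per cell cannot be told apart.

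The replication genes fell with them in B16.1. Mcm5, a helicase subunit, went from 287, 287 and 296 CPM to 78.6, 72.1 and 81.2 CPM, and the origin licensing factor Cdc6 from 64.9, 59.7 and 67.9 CPM to a range of 15.5 to 16.3 CPM. Rrm2 dropped from 369.9, 372 and 359 CPM to 88.4, 80.7 and 81.4 CPM (-2.14 ± 0.08). The smallest falls among the 17 were those of Ccne1 (-0.24 ± 0.07, adjusted p = 0.0034) and Gins2, a subunit of the replicative helicase (-0.61 ± 0.13). Cyclin E2 (Ccne2) behaved unlike cyclin E1, falling from 29.5, 26.1 and 29.0 CPM to 9.27, 6.72 and 6.40 CPM (-1.93 ± 0.15). Against these falls, Ccnd3 rose from 237, 239 and 227 CPM to 344, 354 and 385 CPM (0.62 ± 0.07), Ccnd1 by 0.32 and Ccnd2 by 0.21 on the log2 scale. The call of Ccnd2 was lost without the filter on low counts (adjusted p = 0.067).

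The other replication and mitotic genes moved the same way in B16.1 with IFNg, where 26.5% of all genes fell and 27.6% rose. Of 40 other replication genes, 40 fell and none rose, led by thymidine kinase Tk1 (-2.86 ± 0.09) and DNA ligase Lig1 (-2.29 ± 0.06). Of 50 other mitotic genes, 49 fell, led by Aspm (-3.14 ± 0.13), a spindle pole protein, and Hmgb2 (-3.00 ± 0.11), a chromatin protein, and 1 rose, Pttg1 (1.24 ± 0.13), which encodes securin. Among 22 G1 kinases and Rb, E2F and DREAM regulators, 16 fell, with E2f2 (-2.23 ± 0.17) and E2f7 (-2.08 ± 0.13) the furthest, and 3 rose, led by Myc (1.24 ± 0.08) and the DREAM subunit Lin37 (1.08 ± 0.16). The list of 18 CDK inhibitors and antiproliferative genes (antiproliferative for short) also holds Mdm2, which encodes an inhibitor of p53. It was split, with 8 risen and 6 fallen. Gadd45b (3.70 ± 0.17) and Gadd45a (2.01 ± 0.16), stress-induced growth arrest genes, rose most, and the inhibitors Cdkn2d (-1.31 ± 0.11) and Cdkn2c (-1.11 ± 0.08) fell most. Cdkn1a, which encodes p21, was at 203 to 236 CPM unstimulated and 554 to 608 CPM with IFNg. Mitochondrially encoded genes took 1.75 to 2.08% of counts unstimulated and 2.82 to 2.97% with IFNg. The 7 melanocyte markers, all detected, summed to 9124 to 9592 CPM with IFNg, below the unstimulated range given above. The part of either in the result was not tested.

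With IFNb the changes in B16.1 were smaller. 4 mitotic and 7 G1/S genes of B16.1 fell (14.3% of all genes fell), and 5 G1/S genes rose (14.6% of all genes rose). None of the 16 changed by 2-fold. Ccnd1 rose most, from 156, 153 and 158 CPM to 257, 256 and 264 CPM (0.73 ± 0.05), followed by Ccne2 (0.67 ± 0.11), Ccnd3 (0.54 ± 0.07) and Ccne1 (0.45 ± 0.07). E2f8 fell most, to 49.2, 54.4 and 51.5 CPM (-0.46 ± 0.07), and E2f1 fell by a similar amount (-0.41 ± 0.07). Both E cyclins, which fell with IFNg, thus rose with IFNb. Mki67 was at 550.0, 549.8 and 492 CPM, a range that overlapped the unstimulated libraries. The melanocyte markers summed to 12621 to 13045 CPM with IFNb and mitochondrially encoded genes took 2.20 to 2.75% of counts, both away from the unstimulated ranges, and their part in the result was not tested. The balance of calls depended on scaling: with total counts alone (no scaling factor) 8 rose and 6 fell, and with upper-quartile scaling 4 rose and 15 fell. Directly compared, 39 of the 40 genes differed between IFNg and IFNb in B16.1 (26.0% of all genes were higher and 24.5% lower with IFNg), 38 of them lower with IFNg, with Mki67 lowest (-3.33 ± 0.13). Ccnd2 was the 1 gene higher with IFNg (0.17 ± 0.06, adjusted p up to 0.20 when libraries were left out in turn or with other settings).

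**Figure D2:**
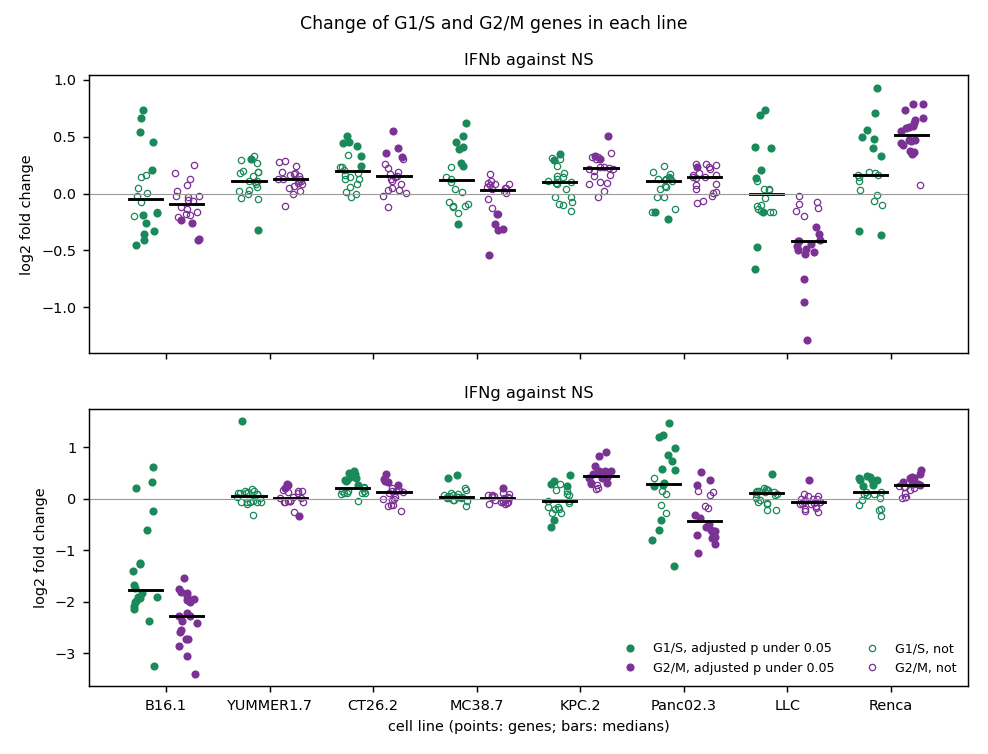
Log2 fold change against NS for the 20 G1/S (green) and 20 G2/M genes (purple) in each line, with IFNb above and IFNg below on separate linear axes; filled points have an adjusted p under 0.05, bars are medians, and Ccnd2 in Renca is left out. The medians of B16.1 with IFNg, -1.78 and -2.28, lie below those of the other lines, and the medians of Panc02.3 with IFNg lie on opposite sides of 0.

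In Panc02.3, IFNg moved the 2 classes apart. 11 G1/S genes rose and 4 fell, whereas 3 mitotic genes rose and 12 fell, among 23.2% of all genes risen and 31.6% fallen. The median log2 fold change was 0.28 for the G1/S genes and -0.43 for the mitotic genes, against -0.07 over all genes. Among the replication genes Mcm2, Cdt1 and Cdc6, which act in origin licensing, rose most. Mcm2 went from 153, 109.9 and 132 CPM to 308, 360.0 and 269 CPM (1.24 ± 0.08, adjusted p = 4.9e-20), and Cdt1, which loads the helicase, from 51.8, 33.9 and 42.2 CPM to 90.4, 116 and 90.4 CPM (1.19 ± 0.09). Cdc6 rose from 29.2, 27.4 and 30.0 CPM to 50.4, 60.6 and 45.6 CPM (0.85 ± 0.10). For all 3 genes every IFNg library was above every unstimulated one. Mcm4 (0.73 ± 0.08), Mcm3 (0.57 ± 0.07), Mcm7 (0.30 ± 0.08), Rrm2 (0.26 ± 0.07) and Mcm5 (0.25 ± 0.08) rose less, Mcm6 did not pass the test (-0.12 ± 0.07), and Tyms, thymidylate synthase, fell (-0.40 ± 0.12). The calls of Mcm5 and Tyms were lost without replicate 2 of IFNg or replicate 3 of NS (adjusted p up to 0.091 and 0.11).

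The mitotic genes that fell in Panc02.3 with IFNg were led by Ccnb2, cyclin B2, from 90.6, 85.8 and 95.0 CPM to 50.8, 39.3 and 38.2 CPM (-1.05 ± 0.12). The polo kinase Plk1 fell from 125, 115 and 119 CPM to 67.8, 59.6 and 66.5 CPM (-0.88 ± 0.11), and Cdc20, the activator of the anaphase promoting complex, from 96.8, 91.1 and 89.0 CPM to 55.9, 58.7 and 50.7 CPM (-0.74 ± 0.10). Foxm1, the mitotic transcription factor, fell as well (-0.70 ± 0.07), as did Mki67 (-0.67 ± 0.12). None of these 5 genes, named here because they were called, overlapped between the groups. Against them, Tpx2 (0.53 ± 0.07) and Aurka (0.37 ± 0.08), a kinase that Tpx2 activates at the spindle, rose, as did the kinetochore motor Cenpe (0.27 ± 0.11), whose call was lost when single libraries were left out (adjusted p up to 0.12). Ccnb1 overlapped between the groups, at 110.1, 98.7 and 93.7 CPM against 119, 97.4 and 119 CPM (-0.15 ± 0.09), unlike Ccnb2.

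The regulators at the G1/S boundary were also split in Panc02.3. Ccne1 rose from 25.8, 20.7 and 18.3 CPM to 59.5, 65.0 and 51.8 CPM (1.46 ± 0.09, adjusted p = 1.5e-20), the largest rise of any of the 40 genes in that comparison. Ccnd1 rose from 465, 402 and 441 CPM to 879.8, 912 and 809 CPM (0.99 ± 0.05) and Ccnd2 by 0.56 on the log2 scale, whereas Ccnd3 fell to 44.2, 31.2 and 40.4 CPM from 66.9, 74.1 and 65.1 CPM (-0.80 ± 0.10). E2f8 fell most of the 40, from 66.4, 61.0 and 68.8 CPM to 25.0, 29.4 and 25.7 CPM (-1.31 ± 0.09), and E2f1 by less (-0.61 ± 0.08). E2f8 thus moved in the direction of the mitotic genes in this line, though it is listed with the G1/S genes.

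The other pathway lists in Panc02.3 with IFNg gave 18 risen and 11 fallen of 40 replication genes, and 7 risen and 19 fallen of 50 mitotic genes. Over all genes 23.2% rose and 31.6% fell. Several list counts in this line lie near those shares and are not read as a trait of their list. Orc2 (1.93 ± 0.08), a subunit of the origin recognition complex, and Mcm10 (1.26 ± 0.10) rose most of the first, and Pold1 (-0.99 ± 0.08), a DNA polymerase subunit, and Tk1 (-0.95 ± 0.10) fell most. Among the mitotic genes Pttg1 (-1.54 ± 0.19) and Spc24 (-1.35 ± 0.13), a kinetochore subunit, fell most, while Sgo1 (0.87 ± 0.11), a protector of centromeric cohesion, and Smc4 (0.80 ± 0.09), a condensin subunit, rose most. Of the 22 G1, Rb, E2F and DREAM regulators 13 rose and 3 fell, with Myc highest (2.24 ± 0.06; 89.9 to 109 CPM unstimulated and 440.0 to 523 CPM with IFNg), then Cdc25a (0.96 ± 0.10), a phosphatase that activates CDK2. Tfdp2 (-2.04 ± 0.17), an E2F partner, and Rbl2 (-1.28 ± 0.11), a pocket protein, fell most. Of the 18 genes in the antiproliferative list 6 rose, with Gadd45a (2.71 ± 0.11) and Mdm2 (1.30 ± 0.07) highest. Mdm2 is on that list but is not itself an antiproliferative gene. Another 6 fell, led by Ccng2 (-1.93 ± 0.15) and Cdkn2d (-1.80 ± 0.12). Mitochondrially encoded genes took 1.56 to 2.33% of unstimulated counts against 1.39 to 1.66% with IFNg, and the IFNg libraries were the shallower, at 2703009 to 5454068 counts. The part of either in the result was not tested.

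With IFNb, 3 of the 40 genes were called in Panc02.3: Cdk1 was the 1 gene that rose (3.33% of all genes rose), and Ccnd1 and Ccnd2 were the 2 that fell (2.82% fell). Each of the 3 calls was lost in several of the other fits (no member was called without the first IFNb library, and 1 without replicate 3 of IFNb or of NS), and with no scaling factor 2 rose and 1 fell. Directly compared, 30 of the 40 genes differed between the cytokines in Panc02.3 (22.6% of all genes were higher and 30.4% lower), with 10 higher and 20 lower with IFNg. Cdt1 differed most upward (1.33 ± 0.09) and E2f8 most downward (-1.15 ± 0.09).

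**Figure D3:**
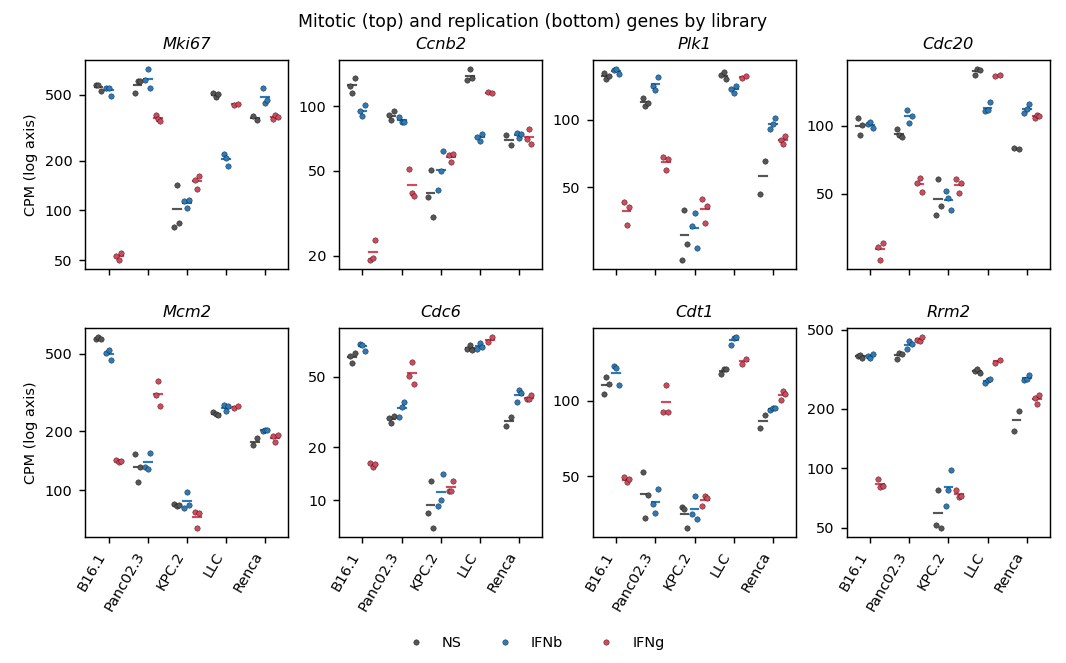
Level in each library (points; bars are group means) of 4 mitotic genes (top row) and 4 replication genes (bottom row) in B16.1, Panc02.3, KPC.2, LLC and Renca, in CPM on log axes that differ between panels (grey NS, blue IFNb, red IFNg). In Panc02.3 the red points of Plk1, 59.6 to 67.8 CPM, lie below the grey ones, and those of Cdc6, 45.6 to 60.6 CPM, lie above them.

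In LLC, IFNb lowered most of the mitotic genes. 14 of the 20 fell and none rose, with a median log2 fold change of -0.42 against -0.01 over all genes, while 6 G1/S genes rose and 3 fell (17.6% of all genes rose and 21.0% fell). Mki67 fell from 513, 482 and 505 CPM to 219, 207 and 187 CPM (-1.29 ± 0.12, adjusted p = 5.6e-14), and it was the only one of the 40 to change by 2-fold in this comparison. Ccnb2 fell from 133, 149 and 135 CPM to 71.7, 68.6 and 74.0 CPM (-0.96 ± 0.09), and Cdc20 from 169, 179 and 177 CPM to 116, 118 and 128 CPM (-0.53 ± 0.08). All treated libraries were below all unstimulated ones for these 3 genes. Cdk1 (-0.09 ± 0.06) and Foxm1 (-0.02 ± 0.07) did not pass the test, with Cdk1 at 157, 155 and 156 CPM against 159, 169.5 and 169 CPM. With upper-quartile scaling 17 mitotic genes fell, and 5 G1/S genes rose and 6 fell. All 20 mitotic genes responded lower in LLC than in the mean of the other 7 lines, by a direct test of that difference (12.7% of all genes did). That mean includes lines in which mitotic genes rose, Renca most, so the 20 include genes such as Cdk1 and Foxm1 that were not called in LLC.

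In the G1/S class of IFNb-treated LLC, all 3 D cyclins rose. Ccnd3 rose from 118, 125 and 121 CPM to 195, 199 and 211 CPM (0.73 ± 0.07) and Ccnd2 from 329, 315 and 304 CPM to 534, 500.4 and 499.7 CPM (0.70 ± 0.06). Ccnd1 rose by 0.14 on the log2 scale, a call lost with upper-quartile scaling (adjusted p up to 0.20 over the alternatives). Cdt1 (0.41 ± 0.07), Ccne1 (0.40 ± 0.07) and Mcm6 (0.20 ± 0.06) rose too. E2f8 fell from 141, 136 and 139.7 CPM to 88.5, 85.2 and 88.7 CPM (-0.67 ± 0.06), in the direction of the mitotic genes, as did Rrm1 (-0.47 ± 0.07) and Mcm3 (-0.16 ± 0.06). The call of Mcm3 was lost when any 1 library was left out, in fits that also fixed the dispersion, the model's spread between libraries. Of the other lists, 36 of 50 mitotic genes fell and 1 rose, with Cdc25c (-0.74 ± 0.09) and Aspm (-0.73 ± 0.09) lowest. For these lists too, the shares over all genes are 17.6% risen and 21.0% fallen. Of 40 replication genes, 14 fell, led by Tk1 (-0.70 ± 0.07), and 5 rose, led by Mcm10 (0.63 ± 0.08). Of the 22 regulators 5 rose, led by Myc (1.53 ± 0.06), and 7 fell, led by Tfdp2 (-0.64 ± 0.10). Of the 18 antiproliferative genes 5 rose, led by Gadd45b (1.30 ± 0.20), and 6 fell, led by Ccng2 (-1.29 ± 0.15). Mitochondrially encoded counts were 1.95 to 2.13% unstimulated and 1.42 to 1.45% with IFNb, and the 7 epithelial markers, 2 of them at 0, summed to 293 to 321 CPM unstimulated and 126 to 128 CPM with IFNb. The part of either in the result was not tested.

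IFNg, by contrast, left most of the 40 genes of LLC without a call: Top2a (0.35 ± 0.07), the topoisomerase that untangles chromosomes, and Ccnd1 (0.47 ± 0.05) rose and none fell (6.65% of all genes rose and 4.60% fell). These counts lie near the shares over all genes and are not read as a trait of the 40. Ccnd1 was at 595, 601 and 584 CPM unstimulated and 820.3 and 827 CPM in the 2 IFNg libraries. Other fits called more genes, in both directions: limma-voom called 6 risen and 2 fallen, both mitotic, and a fit of LLC alone called 13 risen and 8 fallen, 5 of these mitotic. With no scaling factor 2 rose and 1 fell. Between the cytokines 25 of the 40 genes differed in LLC (16.8% of all genes were higher and 12.5% lower), 21 of them higher with IFNg, Mki67 most (1.10 ± 0.13) and Ccnd3 least (-0.60 ± 0.08).

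Renca moved the other way with IFNb. 19 of its 20 mitotic genes rose and none fell, with a median log2 fold change of 0.51 against 0.00 over all genes, and 7 G1/S genes rose and 2 fell (7.10% of all genes rose and 6.82% fell). None of the 40 changed by 2-fold. Among the mitotic genes Plk1 rose from 46.6 and 65.3 CPM in the 2 unstimulated libraries to 90.6, 95.5 and 102 CPM (0.79 ± 0.11, adjusted p = 3.4e-07), and Cdc20 from 79.6 and 78.8 CPM to 114, 119 and 125 CPM (0.59 ± 0.09). Foxm1 rose from 63.6 and 65.3 CPM to 96.8, 87.7 and 98.4 CPM (0.55 ± 0.08). The groups did not overlap for these 3 genes, and the 1 mitotic gene not called was Ccnb2 (0.07 ± 0.11). For 18 of the 20, the response was higher than the mean of the other 7 lines in a direct test (5.49% of all genes were). That mean includes LLC, where most mitotic genes fell.

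Ccnd1 rose most of all in Renca with IFNb, from 494 and 506 CPM to 976, 907 and 972 CPM (0.93 ± 0.06). Rrm2 (0.71 ± 0.08), E2f8 (0.56 ± 0.08), Cdc6 (0.49 ± 0.10), Mcm4 (0.48 ± 0.08), Mcm5 (0.40 ± 0.07) and Rrm1 (0.33 ± 0.08) rose with it. The 2 genes that fell were E2f1 (-0.36 ± 0.07) and Ccnd3 (-0.33 ± 0.08), and each lost its call without 1 of the 2 unstimulated libraries (adjusted p = 0.061 and 0.14). In the other lists 42 of 50 mitotic genes rose and none fell, with Cdca5 (0.79 ± 0.11), which encodes sororin, and Ckap2l (0.75 ± 0.10) highest. For these lists too, the shares over all genes are 7.10% risen and 6.82% fallen. Of 40 replication genes 16 rose and none fell, led by Clspn (0.65 ± 0.09), a checkpoint mediator. Of the 22 regulators 6 rose, led by Cdc25a (0.55 ± 0.09), and 1 fell, Myc (-0.38 ± 0.07). Of the 18 antiproliferative genes 3 rose, led by Gadd45b (0.56 ± 0.13), and 6 fell, led by Cdkn1a (-1.26 ± 0.09; 215 to 245 CPM unstimulated, 86.6 to 112 CPM with IFNb) and Ccng2 (-1.06 ± 0.14). Mitochondrially encoded genes took 3.46 to 4.89% of unstimulated counts, 3.04 to 3.46% with IFNb and 2.35 to 2.72% with IFNg. The 4 renal tubule markers summed to 629 to 673 CPM unstimulated, 523 to 541 CPM with IFNb and 483 to 509 CPM with IFNg. The part of either in these results was not tested.

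With IFNg, 9 mitotic and 8 G1/S genes of Renca rose and none fell (6.04% of all genes rose and 5.16% fell). Plk1 rose most, to 81.4, 78.3 and 84.9 CPM (0.55 ± 0.11), and Ccnd1 to 667, 665 and 679.6 CPM (0.42 ± 0.06). This count rested on 1 of the 2 unstimulated libraries: without replicate 2 of unstimulated Renca, 5 members were called, and without it Plk1 had an adjusted p of 0.21. Under total-count scaling 17 rose and 2 fell. The other lists gave 15 risen and 0 fallen of 50 mitotic genes, and 13 risen and 2 fallen of 40 replication genes. Between the cytokines 15 of the 40 genes differed in Renca (5.25% of all genes were higher and 4.19% lower), 14 of them lower with IFNg than with IFNb, with Ccnd1 lowest (-0.51 ± 0.05). That count was 9 without the first IFNb or without the second IFNg library.

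In KPC.2, IFNg raised 16 of the 20 mitotic genes and lowered none, with a median log2 fold change of 0.44 against -0.03 over all genes. In the G1/S class 4 genes rose and 2 fell (13.8% of all genes rose and 15.8% fell). Cenpe rose most, from 36.4, 58.4 and 41.3 CPM to 83.8, 80.4 and 93.9 CPM (0.92 ± 0.13, adjusted p = 3.9e-08), then Top2a, from 147, 212 and 157 CPM to 319, 277 and 321 CPM (0.83 ± 0.07). Mki67 went from 79.5, 143 and 83.8 CPM to 153, 134 and 162 CPM (0.54 ± 0.13). The second unstimulated library was the highest of its group for each of these genes, and for Mki67 it lay within the IFNg range. Its mitotic genes summed to 1405 CPM, the upper end of 956 to 1405 CPM for the group, against 1486 to 1659 CPM with IFNg. Leaving out 1 library gave between 16 calls, without the first unstimulated library, and 27, without the second, in place of 22. With no scaling factor 15 rose and 6 fell, and with upper-quartile scaling 19 rose and 5 fell; in the first case the median of all genes shifted by -0.10 on the log2 scale.

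The G1/S genes of KPC.2 did not rise together with the mitotic ones. Ccnd2 fell from 538, 519 and 490.3 CPM to 364, 322 and 366 CPM (-0.55 ± 0.06) and Mcm7 fell too (-0.41 ± 0.08). E2f8 (0.46 ± 0.14), Mcm5 (0.34 ± 0.08), Rrm2 (0.29 ± 0.09) and E2f1 (0.25 ± 0.09) rose, and all but Mcm5 lost the call with no scaling factor. In the other lists 34 of 50 mitotic genes rose and none fell, led by Kif14 (0.75 ± 0.17) and Anln (0.73 ± 0.11), both needed for cytokinesis. For these lists too, the shares over all genes are 13.8% risen and 15.8% fallen. Of 40 replication genes 5 rose, led by Pola2, a subunit of DNA polymerase alpha (0.61 ± 0.09), and 4 fell, led by Pold2 (-0.31 ± 0.07). Of the 22 regulators 6 rose and 6 fell, with the pocket protein gene Rbl1 (1.28 ± 0.13) and E2f2 (1.01 ± 0.18) highest and Myc (-0.52 ± 0.06) lowest. Of the 18 antiproliferative genes 7 rose and 5 fell. Cdkn1a rose most (1.30 ± 0.13), from 13.8 to 18.3 CPM unstimulated to 36.3 to 45.7 CPM, in the same libraries in which the mitotic genes rose, and Cdkn2b fell most (-0.90 ± 0.09). Mitochondrially encoded genes took 3.15 to 3.79% of unstimulated counts and 2.31 to 2.88% with IFNg, and the 7 epithelial markers summed to 5749 to 6166 CPM and then 9225 to 9724 CPM. The part of either in the result was not tested.

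With IFNb, 3 mitotic and 2 G1/S genes of KPC.2 rose and none fell (2.52% of all genes rose and 1.93% fell). The largest rise was that of Cenpe (0.50 ± 0.15, adjusted p = 0.039), and Mcm6 (0.35 ± 0.07) was the 1 call kept in every other fit. The count ranged from 1 to 13 as libraries were left out: it was 13 without the second unstimulated library, 1 without the first or the third unstimulated or the second IFNb library, and 3 without the first IFNb library. Between the cytokines 13 genes differed in KPC.2 (10.9% of all genes were higher and 9.18% lower with IFNg): 8 mitotic genes were higher with IFNg, led by Top2a (0.52 ± 0.07), and 5 G1/S genes were lower, led by Ccnd2 (-0.52 ± 0.07). The count was 8 without the second IFNb library, and with no scaling factor 2 were higher and 6 lower.

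In CT26.2 every called change against NS among the 40 genes was a rise, in both classes and with both cytokines. With IFNg 5 mitotic and 9 G1/S genes rose (4.97% of all genes rose and 3.86% fell), and with IFNb 4 mitotic and 6 G1/S genes rose (1.97% rose and 0.929% fell). Rrm2 rose from 135, 135 and 141 CPM to 203, 173 and 184 CPM with IFNb (0.45 ± 0.08) and 180.1, 207 and 205 CPM with IFNg (0.53 ± 0.08). Foxm1 was at 155, 135 and 118 CPM unstimulated, 176, 204 and 232 CPM with IFNb (0.55 ± 0.07) and 186, 176 and 176 CPM with IFNg (0.39 ± 0.07). Mcm5 stood at 169, 189 and 186 CPM unstimulated and 226, 242 and 243 CPM with IFNg (0.39 ± 0.07). For each of these 3 genes the treated libraries named were above the unstimulated ones. Pcna (0.35 ± 0.07), Mcm6 (0.36 ± 0.07) and Cdc6 (0.50 ± 0.12) also rose with IFNg. Of 40 other replication genes 23 rose with IFNg and none fell, led by Gins1 (0.62 ± 0.15), and of 50 mitotic genes 8 rose, led by Cenpm (0.61 ± 0.16). None of the 40 genes differed between the 2 cytokines in CT26.2 by edgeR (2.51% of all genes were higher and 1.50% lower with IFNg), while DESeq2 called 2, and 8 had an unadjusted p under 0.05 in edgeR. The count between cytokines was 2 without the first IFNb library, and 1 without the third IFNb or the first IFNg library. The IFNb count fell from 10 to 3 without the first IFNb library and to 3 when CT26.2 was fitted alone. With IFNg, the fit of CT26.2 alone called 7 G1/S genes and 0 mitotic genes. Foxm1, E2f8 (0.44 ± 0.08) and Rrm2 kept their IFNb calls in every fit. The mitotic genes summed to 2630, 2097 and 1956 CPM unstimulated. They summed to 2362, 2550 and 2735 CPM with IFNb and to 2631, 2310 and 2422 CPM with IFNg. The first unstimulated library thus lay within both treated ranges. Mitochondrially encoded genes took 3.45 to 4.31% of counts unstimulated, 2.31 to 4.12% with IFNb and 2.80 to 3.90% with IFNg. Totals with IFNb went as low as 1898464 counts. The part of these in the result was not tested.

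In MC38.7, IFNb raised the G1/S cyclins and lowered some mitotic genes: 7 G1/S genes rose and 1 fell, and 5 mitotic genes fell and none rose (13.8% of all genes rose and 16.8% fell). Ccnd1 rose from 582, 604 and 617 CPM to 939, 998 and 831 CPM (0.62 ± 0.05), and Ccne1 from 43.9, 42.6 and 41.9 CPM to 62.9, 63.1 and 53.9 CPM (0.51 ± 0.07). Ccnd3 (0.45 ± 0.08), Ccne2 (0.41 ± 0.11), E2f8 (0.39 ± 0.06), Ccnd2 (0.27 ± 0.06) and E2f1 (0.24 ± 0.06) rose as well, so the 7 risen genes were all cyclin or E2F genes. That did not hold in every fit: 9 G1/S genes rose with DESeq2's size factors or limma-voom and 10 with DESeq2 or with MC38.7 fitted alone, so replication genes were among them. Ccnb2 fell most, from 89.2, 90.5 and 89.0 CPM to 61.0, 64.2 and 57.4 CPM (-0.54 ± 0.10), followed by Aurkb (-0.32 ± 0.07) and the spindle motor Kif11 (-0.31 ± 0.07), and Mcm2 was the replication gene that fell (-0.27 ± 0.08). Mki67 overlapped between the groups (0.06 ± 0.12). With DESeq2's size factors in edgeR 9 of the 40 rose and 5 fell. Fitted alone, 15 rose and 12 fell, among them 5 mitotic genes risen and 7 fallen, and DESeq2 and the fit without the filter each called 1 mitotic gene risen. Of the other lists 21 of 50 mitotic genes fell and 3 rose, with Spc24 lowest (-0.98 ± 0.09), and 12 of 40 replication genes fell and 1 rose. Among the 18 antiproliferative genes 2 rose and 5 fell, with Cdkn1a highest (1.24 ± 0.10; 27.6 to 28.9 CPM unstimulated, 61.7 to 68.9 CPM with IFNb). The 7 endothelial and fibroblast markers summed to 308 to 311 CPM unstimulated, 384 to 389 CPM with IFNb and 294 to 300 CPM with IFNg. Mitochondrially encoded genes took 1.77 to 2.34% of unstimulated counts and 2.01 to 2.14% with IFNb. The part of either in the result was not tested. IFNg raised Ccnd1 (0.46 ± 0.05), Ccne1 (0.41 ± 0.07) and Top2a (0.21 ± 0.06) in MC38.7 and lowered none (3.89% of all genes rose and 0.886% fell), and the call of Top2a was lost in most other fits. Between the cytokines 12 genes differed in MC38.7 (17.8% of all genes were higher and 10.5% lower), 7 higher and 5 lower with IFNg, from Ccnb2 (0.50 ± 0.09) to Ccnd3 (-0.38 ± 0.07). With DESeq2's size factors 3 were higher and 6 lower.

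In YUMMER1.7, 2 of the 40 genes were called with IFNb: Mcm4 (0.30 ± 0.08) rose and Ccnd2 (-0.32 ± 0.07) fell, among 0.384% of all genes risen and 0.972% fallen. Both calls were lost without the first unstimulated library. The count was 1 without the second unstimulated library or without any 1 of the 3 IFNb libraries, and DESeq2 called 9 risen and 1 fallen. Under total-count scaling 3 rose and 1 fell. With IFNg the clear change was Ccne1, from 9.11, 8.99 and 9.19 CPM to 26.1, 24.6 and 27.6 CPM (1.51 ± 0.11, adjusted p = 1.1e-17). It was the only member past 2-fold in that comparison, and Ccne2 did not pass the test (0.15 ± 0.12). In all, 1 G1/S and 3 mitotic genes rose and 1 mitotic gene fell (9.79% of all genes rose and 11.0% fell): Top2a (0.29 ± 0.06), Kif11 (0.27 ± 0.08) and Foxm1 (0.21 ± 0.07) rose, and Mki67 fell (-0.33 ± 0.12). The calls of Ccne1 and Top2a held in every fit, and that of Mki67 was lost whenever 1 library was left out (adjusted p up to 0.12). Those leave-out fits also fixed the dispersion, so the loss need not come from any single library. Counts of 2 or 3 were left without the second or the third unstimulated or the first or second IFNg library, and with no scaling factor 4 rose and 3 fell. Between the cytokines 6 genes differed in YUMMER1.7 (9.09% of all genes were higher and 7.73% lower), 3 higher and 3 lower with IFNg, with Ccne1 highest (1.24 ± 0.11). Under total-count scaling 2 were higher and 9 lower with IFNg.

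**Figure D4:**
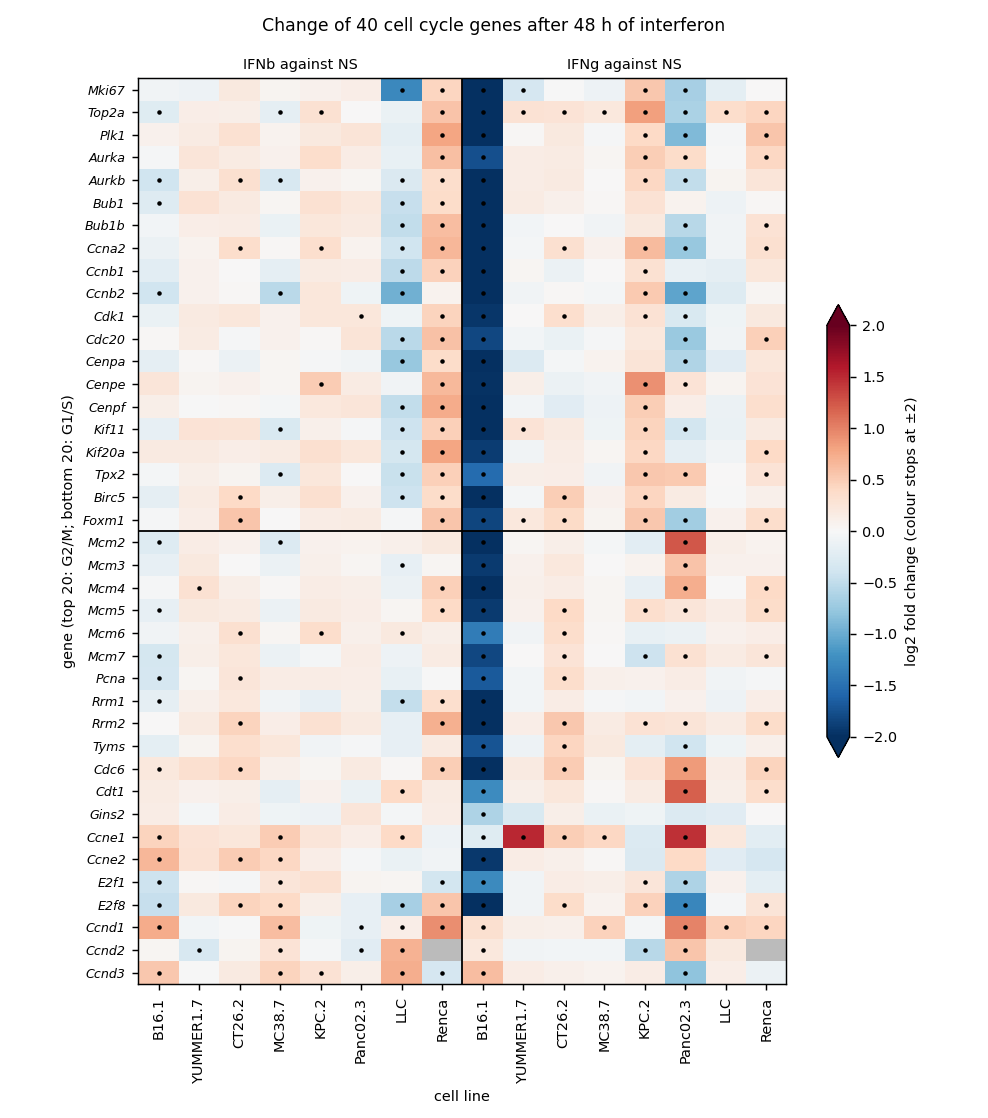
Log2 fold change of each of the 40 genes (rows; top 20 G2/M, bottom 20 G1/S) in each line (columns) with IFNb (left) and IFNg (right) against NS; red is higher and blue lower, colour stops at ±2, and a dot marks an adjusted p under 0.05. The B16.1 column with IFNg is blue except for the 3 D cyclins, and the LLC and Renca columns with IFNb are opposite in the upper rows; grey marks Ccnd2 in Renca, which has too few counts.

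Read gene by gene across the lines, Ccnd1 and Ccne1 rose in most of the comparisons with NS in which they were called. Ccnd1 rose with IFNg in 5 lines (B16.1, LLC, MC38.7, Panc02.3 and Renca) and fell in none, and with IFNb it rose in 4 (B16.1, LLC, MC38.7 and Renca) and fell in Panc02.3. Ccne1 rose with IFNg in CT26.2, MC38.7, Panc02.3 and YUMMER1.7 and fell in B16.1, and with IFNb it rose in B16.1, LLC and MC38.7. Of the 20 mitotic genes, 18 rose in some line and fell in another with IFNg, and 14 did so with IFNb. Of the 20 G1/S genes, 16 and 8 did so. With IFNg, all 20 mitotic genes and 17 of the 20 G1/S genes fell in B16.1. For these genes a rise in any other line was enough to be counted, so the IFNg counts rest largely on B16.1. How many of all genes rose in some line and fell in another was not counted, so these counts are not read as a trait of the 2 classes. The comparisons with IFNb and with IFNg in a line share its unstimulated libraries. E2f8 rose with IFNb in CT26.2, MC38.7 and Renca and fell in B16.1 and LLC, while with IFNg it rose in CT26.2, KPC.2 and Renca and fell in B16.1 and Panc02.3. Gins2 was called in B16.1 with IFNg and in no other comparison with NS.

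**Figure D5:**
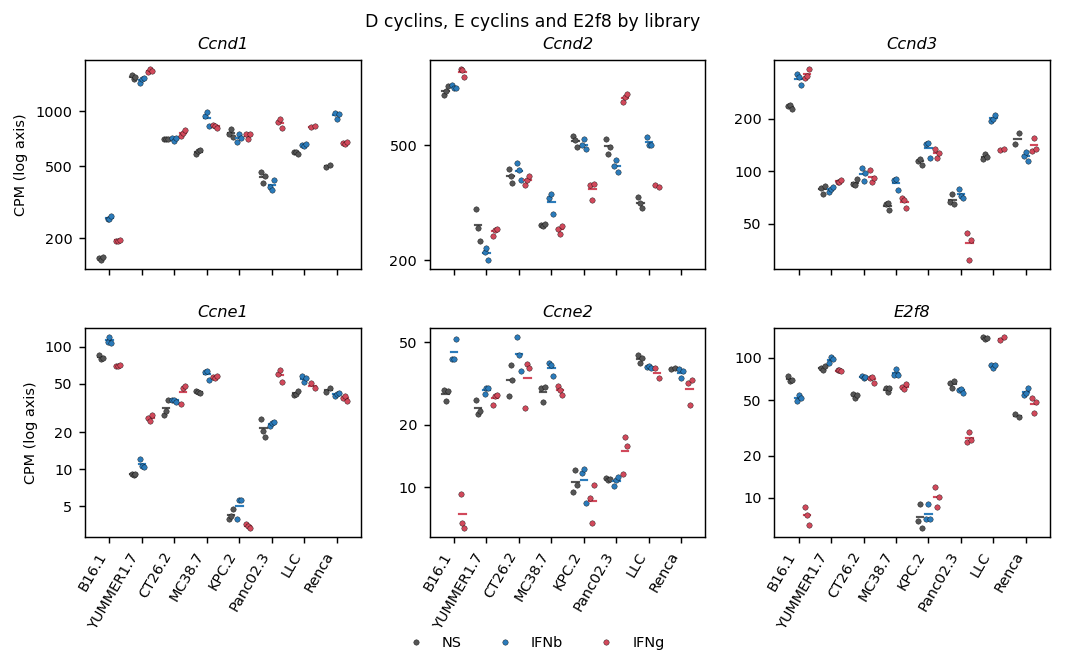
Level in each library (points; bars are group means) of the D cyclins (top row), the E cyclins and E2f8 (bottom row) in the 8 lines, in CPM on log axes that differ between panels (grey NS, blue IFNb, red IFNg); Ccnd2 in Renca is left out. Ccne1 rises to 24.6 to 27.6 CPM with IFNg in YUMMER1.7, while E2f8 drops to 6.40 to 8.49 CPM in B16.1.

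The responses differed between lines for nearly every member. With IFNb, 39 of the 40 genes differed between the 8 lines (edgeR F test, 48.2% of all genes), Gins2 being the exception. With IFNg all 40 differed (69.2% of all genes), and 37 of the 40 still did among the 7 lines other than B16.1 (58.0% of all genes), a test added after the data had been seen. The 3 that did not were Bub1, Gins2 and Rrm1. The fall of the mitotic genes with IFNg in B16.1 was below the mean of the other 7 lines for all 20 genes, as it was for 17 of the 19 G1/S genes other than Ccnd2 (20.2% of all genes). Without Ccnd2, whose fit includes its near-empty Renca libraries, the F tests called 38, 39 and 36 of 39 genes.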

How the data were processed

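Bulk RNA of 70 libraries from 24 groups was analysed. The labels' protocols give RNeasy extraction and a directional NEB Ultra II library kit. Per the submitters' processing notes, the tools were Trimmomatic 0.36 and kallisto with GRCm38 (mm10). The authors deposited estimated counts per gene, all whole numbers, for 35197 genes, and how transcripts were summed to genes is not given in the sources used here. Reads shared by near-identical transcripts may be split between genes by such an estimate.

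Counts were fitted with edgeR 4.0.16 (R 4.3.3) by its quasi-likelihood test, with 1 coefficient for each group, TMM scaling and its filter on low counts (16147 genes tested). p-values were adjusted by Benjamini-Hochberg over all genes tested, and a gene was called at an adjusted p under 0.05. SE is the log2 fold change divided by the root of F. The 40 genes and all lists were chosen with earlier results of these data known. All 40 were accounted for. Per-library values were given for fixed genes where results turned on them and for the largest rise and fall of each comparison, and the 2 largest changes each way were taken from the 4 other lists. Level is CPM on TMM-scaled libraries. Genes described as not overlapping between groups had already been called. How many of all genes separate in this way was not counted, so separation adds no support to a call. Library totals ranged from 668355 to 28550816, so values of KPC.2 and CT26.2 with IFNb rest on some of the fewest counts. No libraries of the same group were identical (0 of 68 pairs), and chi-square per gene between replicates was 1.53 to 16.2. Libraries of different groups were not compared in this way. Libraries of B16.1, LLC and Renca were also simulated (14351 genes). Only IFNg in B16.1 was changed there, for 100 well-counted genes by 1 and 100 by 2 on the log2 scale. The test recovered 100% of these, with 6.10% false among the calls. Smaller changes, genes with few counts and a contrast with as many changed genes as the real one were not simulated. The rates therefore do not carry over to them. The alternatives were other scalings, DESeq2 1.42.0, limma-voom (limma 3.58.1), no filter, each line fitted alone, a 2-fold minimum, a replicate block, and 70 fits that each left out 1 library. In these 70 fits the dispersion, the model's spread between libraries, was fixed at the trend from all libraries, unlike in the main fit. A call lost in them may thus also reflect that setting. Promoters were read from RefSeq's GRCm38.p6 table, and proteins were not used here.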

Additional observations from a re-analysis of the deposited data

Results flagged for a closer look

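The response to IFNb differed between the 8 lines for 39 of the 40 genes, and the response to IFNg for 40 of the 40, in edgeR's F test of the difference between lines. Over all genes tested the shares were 48.2% for IFNb and 69.2% for IFNg, so such a difference was common. The highest adjusted p for IFNg was 0.012, and the 1 gene without a call for IFNb was Gins2 (adjusted p = 0.35). With IFNb the mitotic genes of LLC and Renca moved in opposite directions, with median log2 fold changes of -0.42 and 0.51. With IFNg those of B16.1 and KPC.2 did, with medians of -2.28 and 0.44.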

How the results depend on the processing

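No called fold change reversed, and 268 of 373 calls of single genes were kept in every other fit run, the 2-fold minimum not counted. A 2-fold minimum left 0 genes called with IFNb in B16.1, CT26.2, KPC.2, MC38.7, Panc02.3, Renca and YUMMER1.7 and 1 in LLC, and with IFNg 0 in CT26.2, KPC.2, LLC, MC38.7 and Renca, 5 in Panc02.3 and 1 in YUMMER1.7. Fitting each line alone gave 3, 27, 0 and 9 genes with IFNb in CT26.2, MC38.7, Panc02.3 and YUMMER1.7. It gave 7, 21, 7 and 16 with IFNg in CT26.2, LLC, MC38.7 and YUMMER1.7, and 24, 9 and 16 between the cytokines in MC38.7, Renca and YUMMER1.7. DESeq2 gave 9, 5 and 10 with IFNb in KPC.2, Panc02.3 and YUMMER1.7, 5 with IFNg in LLC, and 2 and 10 between the cytokines in CT26.2 and YUMMER1.7. Without the filter the counts were 8, 6 and 4 with IFNb in KPC.2, Panc02.3 and YUMMER1.7, and 1 between the cytokines in CT26.2. Limma-voom gave 8 with IFNg in LLC. With no scaling factor the counts were 4 with IFNb in YUMMER1.7, and 8 and 11 between the cytokines in KPC.2 and YUMMER1.7. Upper-quartile scaling gave 4 with IFNb in YUMMER1.7, and 1 and 10 between the cytokines in CT26.2 and YUMMER1.7, and DESeq2's size factors in edgeR gave 1 in CT26.2. The cause of these shifts was not tested.

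The fits without 1 library also fixed the dispersion, so a lower count in them need not come from that library alone. Leaving out 1 library gave 3 to 11 genes with IFNb in CT26.2, 1 to 13 in KPC.2, 0 to 3 in Panc02.3 and 0 to 2 in YUMMER1.7. It gave 5 to 18 with IFNg in Renca and 2 to 4 in YUMMER1.7, and 0 to 2, 8 to 12 and 9 to 16 between the cytokines in CT26.2, KPC.2 and Renca. With the replicate block the counts with IFNb were 6 in CT26.2, 3 in KPC.2, 1 in Panc02.3 and 1 in YUMMER1.7. The labels do not say what a shared replicate number means. Of 68 same-numbered pairs, 1 had a correlation of deviations over 0.1 (range -0.17 to 0.10). Differently numbered pairs were not compared, so these correlations cannot tell whether the numbers mark a batch. With no scaling factor the median of all genes moved by -0.10 with IFNg in KPC.2.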
